A study of Homo sapiens with 16 samples.

Results

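Guidance ligands and their receptors were examined in human iPS cell–derived cardiomyocytes (hiPSC-CMs) in which LINC00881, a cardiac long intergenic noncoding RNA, was raised with a plasmid or lowered with an antisense GapmeR. The genes were chosen by symbol: the SLITs and ROBOs, semaphorins of classes 3 to 7 with their plexins and neuropilins, the netrins with DCC, NEO1 and the UNC5 receptors, and the teneurins. They number 54 of the 59385 symbols in the count table. The family itself was selected on measured values, the fold changes of SLIT3, PLXNA4 and TENM4 in these libraries, which were higher with the plasmid and lower with the GapmeR. Differences between treated and control libraries are therefore given as a description. Calls at a p cutoff in those contrasts describe the members beside all genes and are not support for a response. The test that this choice did not use, reported below, is on a different contrast.

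All 16 libraries came from the WTC-11 line at day 15 to 35 of differentiation, with 4 numbered replicates in each group, and all were transfected with lipofectamine. In the overexpression experiment, cells transfected with a plasmid that encodes LINC00881 were compared with cells given a plasmid for bacterial alkaline phosphatase. In the knockdown experiment, locked nucleic acid GapmeRs against LINC00881 were compared with a scrambled oligonucleotide. WTC-11 is a single human line, and nothing in the labels says whether replicates of a group came from separate differentiations, so the spread between them may be partly technical. RNA was measured in bulk, in which fewer cells of a type and less RNA per cell cannot be told apart.

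Guidance molecules were first described as cues that attract or repel growing axons, and the same ligands and receptors shape the developing heart. SLITs are secreted ligands that bind ROBO receptors and act in heart tube assembly and in the growth of the chambers. Class 3 semaphorins are secreted and signal through plexins, mostly with a neuropilin as coreceptor, in the outflow tract and in cardiac innervation, while the other vertebrate classes are bound to the membrane. Secreted netrins bind DCC, NEO1 and the UNC5 receptors. Teneurins are large transmembrane adhesion proteins that pair across cell contacts with each other and with latrophilins.

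Before the values, the promoters of SLIT3, PLXNA4 and TENM4 are shown, since these 3 genes are the ones past an unadjusted p of 0.05 in both experiments, in opposite directions. The windows come from RefSeq on GRCh38.p14, cover 300 bases around the annotated start, most of them upstream of it, read 5′ to 3′ on the minus strand, and have each CpG dinucleotide in capitals. They lie at chr5:169301090-169301389 for SLIT3, chr7:132576421-132576720 for PLXNA4 and chr11:79440981-79441280 for TENM4. The PLXNA4 window lies inside the span that GENCODE release 29 gives the gene.
SLIT3: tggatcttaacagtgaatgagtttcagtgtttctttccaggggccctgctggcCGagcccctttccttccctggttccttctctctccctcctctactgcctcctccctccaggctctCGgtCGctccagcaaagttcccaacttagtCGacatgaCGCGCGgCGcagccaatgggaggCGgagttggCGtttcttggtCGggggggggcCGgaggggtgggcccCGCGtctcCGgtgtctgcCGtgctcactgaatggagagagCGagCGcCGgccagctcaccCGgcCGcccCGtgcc
PLXNA4: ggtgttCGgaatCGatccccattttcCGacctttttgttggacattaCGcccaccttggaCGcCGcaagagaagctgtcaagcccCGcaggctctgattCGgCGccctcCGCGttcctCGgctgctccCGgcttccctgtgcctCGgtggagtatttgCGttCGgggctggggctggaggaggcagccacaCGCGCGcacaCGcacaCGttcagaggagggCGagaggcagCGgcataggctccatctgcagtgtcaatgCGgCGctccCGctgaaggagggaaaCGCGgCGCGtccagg
TENM4: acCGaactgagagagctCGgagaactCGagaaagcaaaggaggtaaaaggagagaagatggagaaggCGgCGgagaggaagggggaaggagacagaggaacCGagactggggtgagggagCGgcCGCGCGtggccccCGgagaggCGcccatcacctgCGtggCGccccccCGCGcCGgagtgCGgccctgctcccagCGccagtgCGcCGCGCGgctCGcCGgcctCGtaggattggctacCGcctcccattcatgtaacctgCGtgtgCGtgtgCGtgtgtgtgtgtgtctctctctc
The 300 bases hold 22, 30 and 30 CpGs in SLIT3, PLXNA4 and TENM4, against a median of 14 over 35116 promoters, 37.7% of which hold at least 22 and 22.4% at least 30. GATAA and TATAAA, each searched on both strands, were in none of the 3 windows and in 22.7% and 11.5% of all promoters. The GC box GGGCGG, searched on both strands, was found once in SLIT3, where it takes in a CpG, and in 45.0% of all promoters. RefSeq promoters were matched for 45 of the 54 genes.

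SLIT2 and SLIT3 also host a pair of microRNA genes with the same 5p product, shown here because the host genes behaved differently in the comparisons that follow. MIR218-1 lies at chr4:20528275-20528384 inside SLIT2 on the plus strand, and MIR218-2 at chr5:168768146-168768255 inside SLIT3 on the minus strand (RefSeq, GRCh38.p14). The mature sequence is given with its seed, bases 2 to 8, in capitals.
hsa-miR-218-5p: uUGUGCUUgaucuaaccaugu
The count table lists at most 4 counts for MIR218-1 and at most 2 for MIR218-2 in any library. These libraries were not made from small RNA, so the mature microRNA was not measured.

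The guidance genes were read at very different depths. Total counts ran from 9833533 to 13493729 with the control plasmid, from 11272633 to 16415025 with LINC00881 plasmid, from 29279325 to 37033017 with the scrambled oligonucleotide and from 26979162 to 37332620 with the GapmeR. LINC00881 stood at 444 ± 29.4 CPM (counts scaled to library size) with its plasmid and 105 ± 25.5 with the control plasmid, and at 19.9 ± 6.42 with the GapmeR and 96.2 ± 48.6 with the scrambled oligonucleotide (SD, n = 4 each; exact permutation test, 2-sided, p = 0.0286 in each experiment, the smallest p these groups allow). Levels here are scaled by TMM within an experiment, so CPM values of the 2 experiments are set side by side only as levels. All 10 cardiomyocyte markers were detected, and together they summed to between 13700 and 26200 CPM. The knockdown libraries fall into 2 sets, replicates 1 and 2 of both groups and replicates 3 and 4 of both groups, which differed widely in expression; the tube numbers in the labels run in the same sets, but no source says what a replicate number stands for. The filter on low counts was passed by 40 of the 54 genes with overexpression and by 42 with knockdown.

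NRP1, the neuropilin that serves as coreceptor for class 3 semaphorins and for VEGF, was the most abundant family member per length of exon in every group. It stood at 46.3 CPM per kb with the control plasmid and 41.9 CPM per kb with the scrambled oligonucleotide. In the control plasmid libraries the next levels per length were those of PLXNA1 at 25.2, SLIT2 at 24.3 and SEMA3C at 20.7 CPM per kb, followed by the netrin receptors UNC5B at 15.2 and NEO1 at 15.1, the plexin PLXNB2 at 14.3, SEMA5A at 12.7 and TENM3 at 10.3. The levels of UNC5B and NEO1 differed by less than their spread, as did those of PLXNA1 and SLIT2. In the scrambled oligonucleotide libraries the order after NRP1 was PLXNB2 at 15.3, SLIT2 at 10.9, SEMA5A at 6.65, SEMA3C at 6.23, PLXNA1 at 6.18 and UNC5B at 5.65 CPM per kb, and the last 4 neighbors lay within each other's spread. SLIT2 spread most among them, at 106 ± 52.0 CPM (SD, n = 4).

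Several classic guidance genes were almost absent. Under 1 CPM in every library were DCC, the main attractive netrin receptor, the netrins NTN1, NTN3, NTN5 and NTNG2, the endothelial receptor ROBO4, the plexin PLXNB3, TENM1 and UNC5A. SLIT1 and ROBO2 also failed the filter in both experiments taken whole, which leaves 11 genes tested in neither. Over whole experiments, SEMA3F was tested with overexpression alone, and ROBO3, SEMA5B and NTNG1 with knockdown alone. ROBO4 had 1 count in all 16 libraries together. At these depths a lack of difference in such genes cannot be read.

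**Figure D1:**
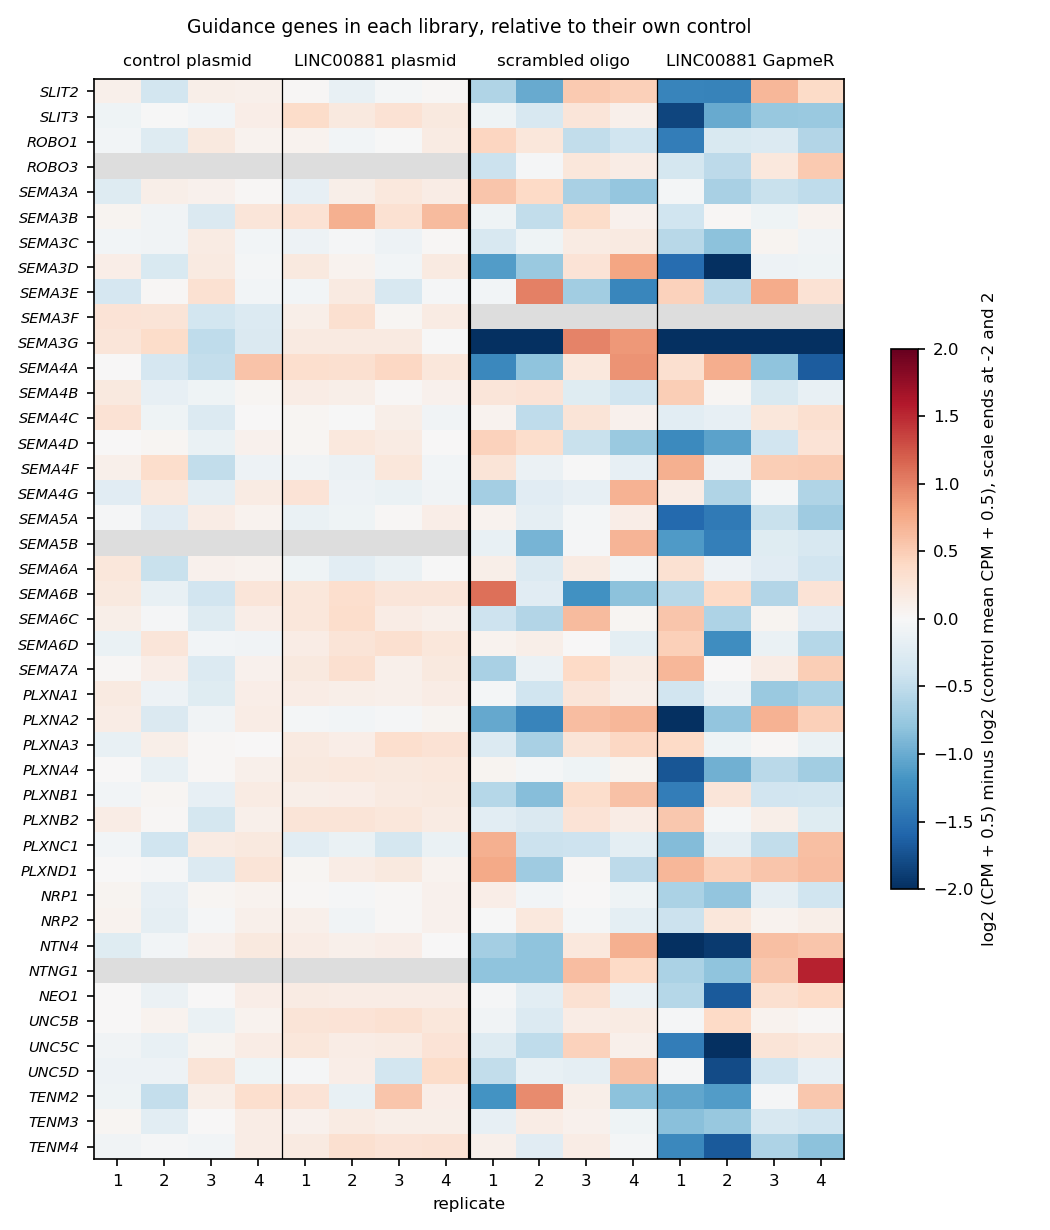
Each row is a guidance gene that passed the filter in at least 1 experiment and each column a library; color gives log2 (CPM + 0.5) relative to the mean of the control group of the same experiment, and grey marks a gene not tested there. The LINC00881 plasmid columns are mostly pale, and in the GapmeR columns the blue of SLIT3, PLXNA4, SEMA5A, NRP1, TENM3 and TENM4 runs across all 4 libraries while that of SLIT2, PLXNA2, SEMA3D and NTN4 follows replicates 1 and 2 in both groups.

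With LINC00881 overexpression, guidance genes were mostly a little higher. Of 40 tested, 31 had a positive log2 fold change (77.5%, against 50.9% of all genes tested), with a median of 0.12 against 0.00332 for all genes. By edgeR's quasi-likelihood fit, 10 of 40 (25%) were higher past an unadjusted p of 0.05, where 5.87% of all 14355 genes were. None was lower past it, where 6.23% of all genes were, and limma-voom placed 1 there (PLXNC1) and DESeq2 0. After adjustment over all genes edgeR called no member (0.00697% of all genes, LINC00881 alone), while DESeq2 and limma-voom each called 1 higher, UNC5B, where they called 0.483% and 0.878% of all genes with an adjusted p. DESeq2 gave an adjusted p to 16 of the 40 members. Since this contrast was in view when the family was chosen, these counts describe the members and are not support for a response.

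Among the ligands, SLIT3, a secreted ligand of the ROBO receptors, stood at 52.9, 55.8, 54.1 and 62.0 CPM in control plasmid replicates 1 to 4 and at 72.5, 64.3, 69.1 and 64.1 CPM with LINC00881 plasmid. The groups did not overlap, and the log2 fold change was 0.26 (SE 0.08). SLIT2, the closest relative of SLIT3, showed no such difference, at 252, 183, 257 and 254 CPM with the control plasmid and 239, 213, 230 and 239 CPM with LINC00881 plasmid (-0.04, SE 0.09). ROBO1, the only ROBO receptor tested here, was at 97.6 ± 12.9 and 101 ± 6.26 CPM (SD, n = 4 each). The secreted semaphorin SEMA3B was low but apart, at 2.02, 1.80, 1.49 and 2.37 CPM against 2.45, 3.44, 2.49 and 3.24 CPM with LINC00881 plasmid (0.58, SE 0.21). SEMA6D, a transmembrane semaphorin that binds PLXNA1 and acts in heart morphogenesis in the chick, was at 16.2, 21.1, 17.1 and 16.9 CPM against 19.7, 21.3, 22.4 and 21.0 CPM (0.24, SE 0.10), and its groups overlapped through control replicate 2. The other 17 semaphorins tested had log2 fold changes from -0.10 for SEMA6A to 0.55 for SEMA4A, which had at most 1.14 CPM in any library of this experiment. Between them lay SEMA3A, SEMA3C, SEMA3D, SEMA3E, SEMA3F, SEMA3G, SEMA4B, SEMA4C, SEMA4D, SEMA4F, SEMA4G, SEMA5A, SEMA6B, SEMA6C and SEMA7A, none of them past the cutoff.

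Among the receptors, PLXNA4, a plexin that pairs with neuropilins to bind SEMA3A, stood at 129, 115, 130 and 138 CPM with the control plasmid and 146, 148, 146 and 148 CPM with LINC00881 plasmid. All 4 LINC00881 plasmid libraries lay above the highest control (log2 fold change 0.20, SE 0.07). PLXNA3, a receptor for class 3 semaphorins, was at 17.9, 21.7, 20.2 and 19.9 CPM against 22.7, 21.9, 25.2 and 24.4 CPM (0.24, SE 0.09). PLXNB2, which binds class 4 semaphorins, was at 115, 106, 81.7 and 112 CPM against 125, 124, 122 and 116 CPM (0.23, SE 0.08). In both genes every LINC00881 plasmid library exceeded every control, by a narrow margin. The remaining plexins ran from -0.20 for PLXNC1, a receptor of SEMA7A, to 0.16 for PLXNB1, and the neuropilins NRP1 and NRP2 were at 0.03 and 0.04.

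The netrin receptors UNC5B, UNC5C and NEO1 were likewise higher. UNC5B, which mediates repulsion from netrin and is known from blood vessels, was at 105, 109, 94.4 and 109 CPM with the control plasmid and at 125, 126, 129 and 122 CPM with LINC00881 plasmid (log2 fold change 0.26, SE 0.07). UNC5D, the remaining member of the UNC5 group that was tested, was at 0.06 (SE 0.27). UNC5C was at 20.2, 19.2, 22.1 and 23.7 CPM against 25.1, 23.6, 24.0 and 25.8 CPM (0.21, SE 0.09), overlapping by control replicate 4. NEO1, a DCC relative that also binds the repulsive guidance molecules, was at 122, 112, 122 and 134 CPM against 137, 135, 136 and 136 CPM (0.15, SE 0.07). NTN4, the only netrin tested, was at 10.2 ± 1.37 and 10.9 ± 0.538 CPM (SD, n = 4 each). Among the teneurins TENM4 was at 48.9, 50.6, 49.6 and 56.9 CPM against 58.5, 64.6, 62.1 and 63.0 CPM (0.27, SE 0.07), with no overlap. TENM3 was at 126, 106, 124 and 137 CPM against 130, 138, 133 and 134 CPM (0.12, SE 0.07), and TENM2, at 2.90 ± 0.772 and 3.47 ± 0.807 CPM (SD, n = 4 each; 0.30, SE 0.21), overlapped between groups.

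Of the 10 genes, PLXNA4, PLXNB2, SEMA3B, SLIT3, TENM4 and UNC5B were higher past the cutoff whichever of the 8 libraries was left out, and the count was 6 without LINC00881 plasmid replicate 3. NEO1 was no longer past it in 6 of the 8 fits, SEMA6D and UNC5C in 5 each and PLXNA3 in 2. It was 2, SEMA3B and UNC5B, when all 16 libraries shared 1 estimate of the spread. The overexpression log2 fold changes followed the GC content of the exons across genes, with a Spearman correlation of 0.502 over the 40 members and 0.494 over 13589 genes, which share their libraries. With an offset on gene length and GC content, SLIT3 and TENM4 were at 0.15, UNC5B at 0.13 and PLXNB2 at 0.10, all still past the cutoff, while PLXNA4, at 0.09, and PLXNA3, at 0.10, no longer passed it.

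With LINC00881 knockdown, the guidance genes were mostly lower. Of 42 tested, 29 had a negative log2 fold change (69%, against 50.6% of all genes tested), and the median was -0.20 against -0.01 for all genes. Past an unadjusted p of 0.05 by edgeR, 8 of 42 (19%) were lower, where 4.15% of all 18127 genes were, and none was higher, where 4.2% of all genes were. Limma-voom placed 2 genes above (PLXND1 and SEMA4F) and DESeq2 0. After adjustment edgeR called no gene of any kind (0% of all genes), limma-voom called no member, and DESeq2 called 4 of the 33 members it gave an adjusted p lower, PLXNA4, SEMA5A, SLIT3 and TENM4 (12.1%, against 0.747% of all such genes). These counts also come from a contrast that was in view when the family was chosen.

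SLIT3 stood at 55.4, 47.4, 70.3 and 63.5 CPM in scrambled oligonucleotide replicates 1 to 4 and at 16.2, 29, 34.8 and 35.0 CPM with the GapmeR. Every GapmeR library lay below every control, at a log2 fold change of -1.04 (SE 0.25), and at -1.18 in replicates 1 and 2 and -0.92 in replicates 3 and 4. Exons of SLIT3 overlap genes on the other strand, over 663 of 14260 exonic bases. The counts were not split by strand, which leaves its values uncertain to that extent. The same holds for SEMA5A, NRP1, TENM3, PLXNA3 and UNC5C, with overlaps of 436, 561, 233, 11 and 78 bases. No exon overlap was annotated for PLXNA4, TENM4, SLIT2, PLXNA2 or UNC5B. SLIT3-AS1, an antisense gene, had at most 26 counts in any library. SLIT2 did not follow SLIT3, at 70.0, 52.7, 153 and 148 CPM against 42.3, 41.7, 169 and 138 CPM. Its groups overlapped, and the log2 fold change was -0.12 (SE 0.52), with -0.54 and 0.05 within the sets. ROBO1, the receptor for both, was at 26.7, 23.2, 13.9 and 14.8 CPM against 7.26, 15.8, 16.2 and 12.9 CPM, lower within replicates 1 and 2 (-1.11) and level within replicates 3 and 4 (0.04).

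Among the semaphorin receptors, PLXNA4 stood at 30.1, 28.0, 27.3 and 30.0 CPM with the scrambled oligonucleotide and at 8.50, 14.6, 19.7 and 17.6 CPM with the GapmeR. The controls spread little and all GapmeR libraries were below them (log2 fold change -0.94, SE 0.25, with -1.33 and -0.60 within the sets). NRP1 was at 527, 465, 483 and 456 CPM against 312, 279, 425 and 367 CPM (-0.48, SE 0.14), a difference of -0.74 in replicates 1 and 2 and of -0.22 in replicates 3 and 4. PLXNA1 was at 65.9, 51.2, 80.4 and 73.2 CPM against 51.8, 62.9, 40.3 and 43.6 CPM (-0.45, SE 0.19). Its groups overlapped, since replicates 1 and 2 held almost no difference (-0.03) and replicates 3 and 4 a large one (-0.85), and its call was lost in 6 of 8 fits with a library left out, all but those without replicate 2 of either group. NRP2, the other neuropilin, was at 54.8 ± 6.39 and 55.4 ± 10.2 CPM (SD, n = 4 each). PLXNA2, PLXNA3, PLXNB1, PLXNB2, PLXNC1 and PLXND1 ran from -0.37 to 0.70 and none passed the cutoff.

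SEMA5A, a transmembrane semaphorin with thrombospondin repeats, was the semaphorin whose groups stood apart, at 84.5, 71.0, 78.1 and 88.4 CPM with the scrambled oligonucleotide and 27.1, 29.8, 59.2 and 48.8 CPM with the GapmeR. The groups did not overlap, and the log2 fold change of -0.97 (SE 0.25) was -1.45 and -0.60 within the sets. Overexpression left SEMA5A at 154 ± 17.2 and 152 ± 13.0 CPM (SD, n = 4 each). SEMA3G, a secreted semaphorin known from endothelium, had the lowest log2 fold change, at -3.10 (SE 1.21), and it rested on the scrambled oligonucleotide libraries of replicates 3 and 4. Its raw counts were 11, 7, 630 and 460 with the scrambled oligonucleotide and 46, 21, 25 and 29 with the GapmeR, so that replicates 1 and 2 were higher with the GapmeR (1.91). SEMA3G was no longer past the cutoff without scrambled oligonucleotide replicate 3 or 4, or without GapmeR replicate 2, 3 or 4. The other 17 semaphorins tested ran from -0.99 for SEMA5B to 0.46 for SEMA3E and SEMA4F, with none past the cutoff.

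The teneurins TENM3 and TENM4 were lower together. TENM4 was at 13.2, 10.4, 13.6 and 11.8 CPM with the scrambled oligonucleotide and at 4.72, 3.45, 7.78 and 6.67 CPM with the GapmeR (log2 fold change -1.11, SE 0.28, with -1.52 and -0.79 within the sets). TENM3 was at 27.9, 34.7, 33.1 and 29.5 CPM against 17.4, 18.3, 24.9 and 23.8 CPM (-0.57, SE 0.18, with -0.80 and -0.34 within the sets). Neither overlapped between groups. TENM2 was under 2 CPM in every library of the experiment and spread widely, from 0.0614 to 1.95 CPM with the scrambled oligonucleotide. The netrin receptors that were higher with overexpression had no common direction with knockdown: UNC5B was at 38.6 ± 5.39 and 42.1 ± 5.88 CPM, UNC5C at 14.2 ± 4.30 and 10.3 ± 7.59 CPM, and NEO1 at 34.6 ± 5.66 and 30.7 ± 16.9 CPM (SD, n = 4 each). UNC5D had a log2 fold change of -0.67 (SE 0.92). NEO1 was lower with the GapmeR in replicates 1 and 2 (-0.93) and higher in replicates 3 and 4 (0.28).

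**Figure D2:**
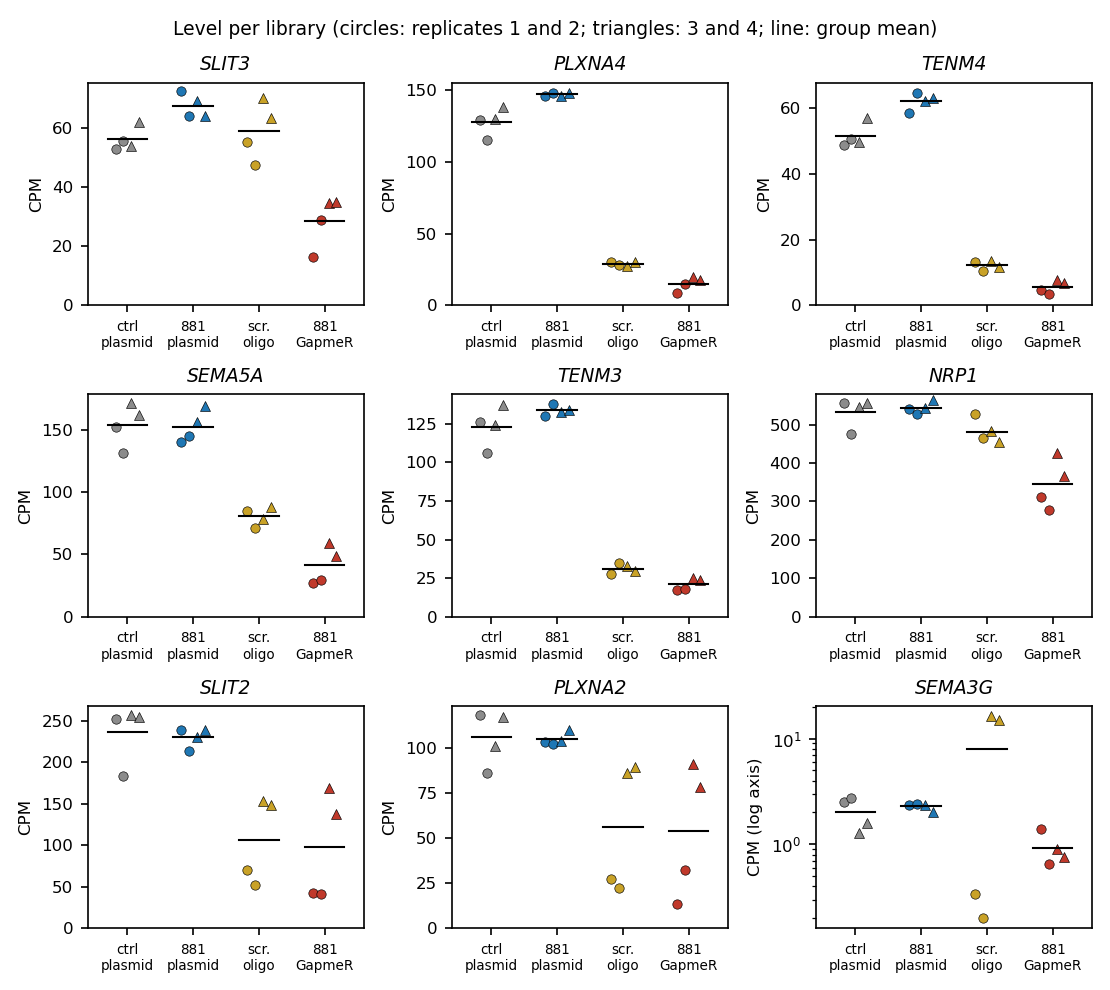
CPM of 9 guidance genes in each of the 16 libraries, with circles for replicates 1 and 2, triangles for replicates 3 and 4 and a line at the group mean; the SEMA3G axis is logarithmic and the others start at 0. SLIT3, PLXNA4, TENM4, SEMA5A, TENM3 and NRP1 lie lower in all 4 GapmeR libraries than in any scrambled oligonucleotide library, whereas SLIT2 and PLXNA2 split into circles and triangles in both groups.

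Of 39 guidance genes tested in both experiments, PLXNA4, SLIT3 and TENM4 passed the unadjusted cutoff in both, upward with the plasmid and downward with the GapmeR, 7.69% against 0.529% of the 14184 genes tested in both. These are the 3 genes that prompted the choice of the family. A positive overexpression and a negative knockdown log2 fold change was found in 21 of 39 (53.8%), against 28.2% of all genes. The sizes did not follow each other across the members, with a Spearman correlation of -0.0555 over 39 genes and -0.141 over all 14184, read from separate libraries.

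**Figure D3:**
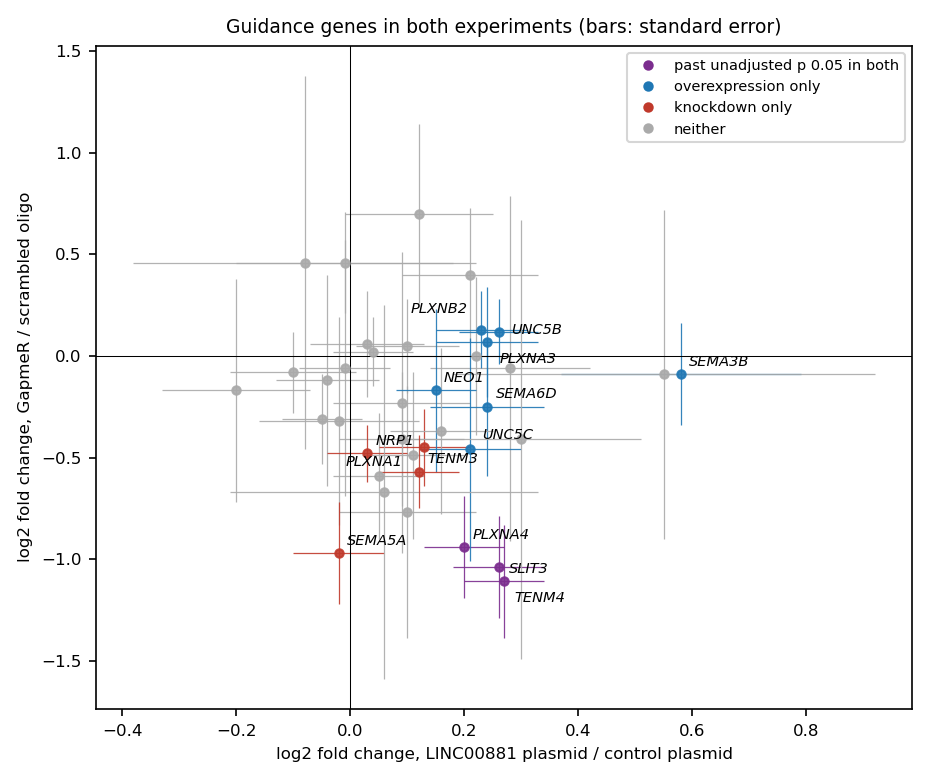
Log2 fold change with LINC00881 plasmid (horizontal) and with GapmeR (vertical) for guidance genes tested in both experiments, with standard errors; SEMA3G, at 0.14 and -3.10, is off the scale and not drawn. SLIT3, PLXNA4 and TENM4 lie together at the lower right, SEMA5A lies as low with no overexpression difference, and SEMA3B, UNC5B, PLXNB2 and PLXNA3 lie to the right with no clear knockdown difference.

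Fitted within each set, 12 of 40 guidance genes (30%) were lower with the GapmeR in replicates 1 and 2, where 9.31% of all genes were, and 1 (SEMA4A) was higher, where 9.45% were. In replicates 3 and 4, 12 of 43 (27.9%) were lower, where 13.6% of all genes were, and 4 (PLXND1, SEMA3E, SEMA4D and SEMA4F) were higher, where 12.6% were. SLIT1, among the 12, had raw counts of 39 and 15 with the scrambled oligonucleotide and 1 and 0 with the GapmeR. SEMA3E, among the 4, had 12 and 1 and then 47 and 42. Each passed the filter on low counts there only through the group where it was high, so its place follows from the filter. NRP1, PLXNA4, SEMA5A, SLIT3, TENM3 and TENM4 were lower in both sets. ROBO1, SEMA3A, SEMA4D, SLIT2, NTN4 and UNC5C were lower in replicates 1 and 2 alone, and SEMA4D, the ligand of PLXNB1 and PLXNB2, was at -1.62 there and at 0.61 in replicates 3 and 4. Whether these differences between sets exceed the noise was not tested.

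**Figure D4:**
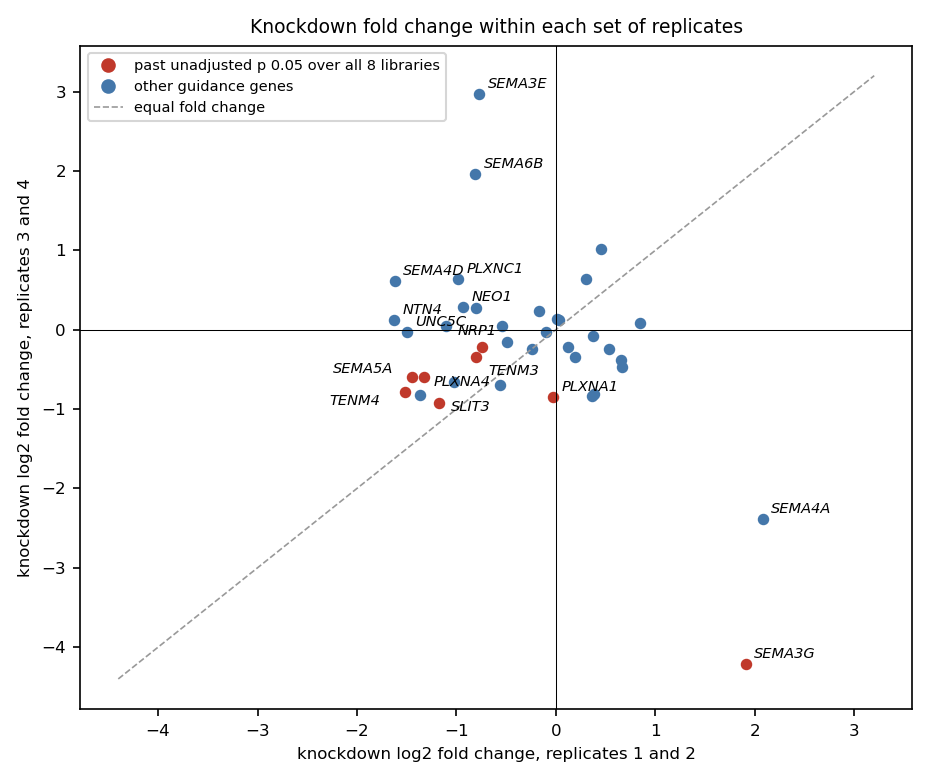
Knockdown log2 fold change of each guidance gene within replicates 1 and 2 (horizontal) and within replicates 3 and 4 (vertical), with a dashed line of equal values. SLIT3, PLXNA4, SEMA5A, TENM4, TENM3 and NRP1 are negative on both axes, and SEMA3G, at 1.91 and -4.21, and SEMA4A, at 2.08 and -2.39, lie far from the line.

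The guidance genes are long, with a median span of 135 kb in the genome against 28.6 kb for the genes tested with knockdown, by GENCODE release 29 on GRCh38. SLIT3 spans 639 kb on chromosome 5 from 168661733 to 169301129, PLXNA4 525 kb on chromosome 7 from 132123332 to 132648688, TENM4 788 kb on chromosome 11 from 78652831 to 79440948, TENM3 659 kb on chromosome 4 from 182143987 to 182803024 and SEMA5A 511 kb on chromosome 5 from 9035026 to 9546075. All 5 are protein coding, and all but TENM3 lie on the minus strand. Of the 16 members of at least 200 kb, 5 (31.2%) were lower with knockdown, with a median log2 fold change of -0.43. Among all 1230 genes of that span 19.1% were lower and the median was -0.39. Across the 42 members the knockdown log2 fold change and the span had a Spearman correlation of -0.476, and across all 16148 annotated genes -0.315, with the libraries shared by every point. Within replicates 1 and 2 the correlation over members was -0.684, and within replicates 3 and 4 it was 0.0272. Over all genes it was -0.342 within replicates 1 and 2 and -0.0939 within replicates 3 and 4, so it was also weaker there.

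With an offset on the span of the gene, 2 guidance genes, SEMA3G and SEMA5A, were lower with knockdown past the cutoff in place of 8. The share of all genes lower under this offset is not given, so this count describes the members alone. SEMA5A was then at -0.44, TENM4 at -0.44, SLIT3 at -0.39, PLXNA4 at -0.37 and NRP1 at -0.23, and TENM3 was at 0.10, with the sign turned. The overexpression values moved less under the same offset, with SLIT3 at 0.21, TENM4 at 0.20 and PLXNA4 at 0.16. Among members of at least 200 kb, 6 of 15 (40%) were higher with overexpression, against 8.18% of all 1137 genes of that span.

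**Figure D5:**
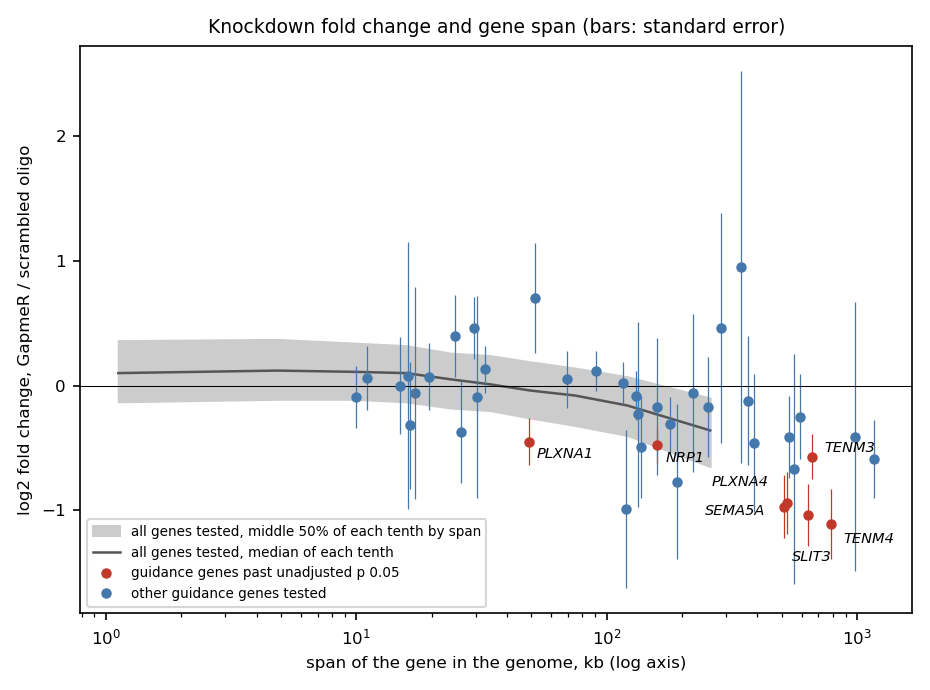
Knockdown log2 fold change against the span of the gene in the genome in kb (log axis), for guidance genes with standard errors (red where past an unadjusted p of 0.05, blue elsewhere; SEMA3G, at -3.10, is not drawn), over the median and the middle 50% of all genes in 10 bins of equal size by span. The median of all genes declines toward long spans, and SLIT3, PLXNA4, SEMA5A, TENM3 and TENM4 have spans of at least 511 kb.

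The sets of knockdown libraries allowed a test that the choice of the family did not use, of replicates 3 and 4 against replicates 1 and 2 with the treatment averaged out. Its p-values measure the spread among libraries left after treatment and set, which also holds any difference in knockdown response between sets. What a set stands for is not known, and its libraries may share a batch. The p-values therefore cannot tell how far other sets would differ. In this contrast 7 of 42 guidance genes (16.7%) were higher in replicates 3 and 4 at an adjusted p under 0.05, where 4.55% of all genes were. SEMA4B alone (2.38%) was lower, where 4.88% of all genes were. The median log2 difference was 0.35 over the members and 0.02 over all genes. NTNG1, among the 7, passed the filter on low counts only through replicates 3 and 4, so its place there follows from the filter. DESeq2 and limma-voom each called 12 members in both directions together (28.6%), where they called 18.4% and 20.3% of all genes. NTN4, PLXNA2, SEMA3D and SLIT2 passed with edgeR whichever library was left out.

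SLIT2 had the smallest p among them. With the libraries listed as replicates 1 and 2 and then 3 and 4, it stood at 70.0, 52.7, 153 and 148 CPM with the scrambled oligonucleotide and at 42.3, 41.7, 169 and 138 CPM with the GapmeR. All libraries of replicates 3 and 4 were above all of replicates 1 and 2, a log2 difference of 1.58 (SE 0.16, adjusted p = 0.00101 by edgeR's quasi-likelihood test). PLXNA2, a class A plexin that acts in the cardiac outflow tract in the mouse, was at 27.3, 22.2, 86.3 and 89.4 CPM and at 13.6, 32.5, 91.2 and 78.5 CPM (1.85, SE 0.24, adjusted p = 0.00348 by edgeR). SEMA3D, a secreted semaphorin, was at 2.61, 3.55, 7.66 and 11.2 CPM and at 1.84, 1.17, 5.79 and 5.89 CPM (1.78, SE 0.27, adjusted p = 0.00652 by edgeR). Each of these genes was higher in both groups of replicates 3 and 4.

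Of the 6 netrins, NTN4 and NTNG1 alone passed the filter on low counts. NTN4, a netrin of basement membranes, was at 5.71, 5.24, 11.0 and 15.9 CPM and at 1.36, 2.15, 14.7 and 14.1 CPM (2.14, SE 0.38, adjusted p = 0.0133 by edgeR). NTNG1, a netrin tethered to the membrane, had raw counts of 0, 0, 32 and 20 with the scrambled oligonucleotide and 2, 0, 21 and 78 with the GapmeR, so it was close to absent in replicates 1 and 2, and no test of it is given. UNC5C, at 11.8, 9.87, 19.7 and 15.3 CPM and at 5.11, 2.52, 17.1 and 16.5 CPM, also passed (1.40, SE 0.35, adjusted p = 0.0418 by edgeR).

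SEMA3C, which guides neural crest into the outflow tract in the mouse, was at 31.1, 37.0, 43.8 and 44.2 CPM and at 26.6, 21.9, 40.7 and 37.1 CPM (0.53, SE 0.14, adjusted p = 0.0472 by edgeR). SEMA4B ran the other way, at 43.5, 44.7, 31.2 and 27.7 CPM and at 51.7, 37.9, 29.6 and 33.3 CPM (-0.55, SE 0.14, adjusted p = 0.0425 by edgeR). The calls near the cutoff were fragile. SEMA3C was lost without any 1 of the 8 libraries, UNC5C without any of 6 (all but scrambled oligonucleotide replicate 4 and GapmeR replicate 2) and SEMA4B without any of 7 (all but GapmeR replicate 2). PLXNA4, TENM3 and TENM4 were called by none of the 3 tools in this contrast (0.33, 0.22 and 0.46). SLIT3, at 0.50 (SE 0.18), was called higher by DESeq2 and limma-voom and not by edgeR.

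Markers of other cell types moved with the sets. The 5 smooth muscle markers summed to between 267 and 481 CPM in replicates 1 and 2 and between 956 and 1230 CPM in replicates 3 and 4, and 4 of 5 were higher in the latter by the same test. The 10 neuronal markers summed to between 18.0 and 65.0 CPM and between 89.0 and 126 CPM (3 of 7 tested higher). NEFL alone averaged 34.6 CPM with the scrambled oligonucleotide and 59.9 CPM with the GapmeR. TUBB3, STMN2, ELAVL3, ELAVL4 and DCX averaged under 1 CPM in both groups. The 8 fibroblast markers went the other way in sum, from between 187 and 280 CPM to between 95.5 and 116 CPM, with 1 of 7 tested higher and 2 lower. The 7 endothelial markers summed to between 4.69 and 9.95 CPM and between 12.7 and 20.9 CPM (1 of 3 tested higher). Of these, PECAM1, CDH5, TEK, TIE1 and VWF averaged under 1 CPM in both groups. The 5 epicardial markers summed to at most 5.90 CPM in the knockdown libraries. The 6 endodermal or hepatic markers summed to between 51.4 and 114 CPM in replicates 1 and 2 and between 149 and 165 CPM in replicates 3 and 4, with 3 of 6 higher. DCX, POSTN and FOXA2 were low on average and much higher in replicates 3 and 4 (log2 differences 4.99, 4.46 and 7.03). They passed the filter on low counts through replicates 3 and 4, so any call of theirs follows from the filter. Of 10 cardiomyocyte markers 2 were higher and 2 lower. The part of these cell types in the levels of SLIT2, PLXNA2, SEMA3D, NTN4, NTNG1 and UNC5C was not tested. In the treatment contrasts, 3 of 5 smooth muscle markers and 4 of 10 cardiomyocyte markers were higher with overexpression, and 5 of 10 cardiomyocyte markers were lower with knockdown, as were SLIT3, PLXNA4, TENM3 and TENM4. The sum of the cardiomyocyte markers was lower with the GapmeR in replicates 1 and 2, from 22500 to 22900 CPM in the controls and from 13700 to 14700 CPM with the GapmeR. It was level in replicates 3 and 4, from 17300 to 17900 CPM and from 17400 to 17800 CPM, where the 4 genes were lower as well. Of 3 endothelial markers tested 1 was higher with knockdown. The part of these markers in the differences of the members was not tested.

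Genes that act next to the guidance receptors were read from 3 lists, against the same shares of all genes (5.87% higher and 6.23% lower with overexpression, 4.2% and 4.15% with knockdown, and 4.55% and 4.88% between sets). Of 46 effectors and partners of guidance receptors, 3 were higher and 4 lower with overexpression, and 2 higher and 5 lower with knockdown, with medians of 0.04 and -0.08. Apart from the 5 lower, these counts were near the shares of all genes. RND3 was lower with overexpression and higher with knockdown, past the cutoff in both (log2 fold changes -0.25, SE 0.1, and 0.93, SE 0.31). It was also lower in replicates 3 and 4 than in replicates 1 and 2 (-0.85, SE 0.14). DOCK1, a guanine nucleotide exchange factor for RAC1 downstream of DCC, was at 20.6 ± 2.32 CPM with the scrambled oligonucleotide and 9.21 ± 2.84 with the GapmeR (SD, n = 4 each; log2 fold change -1.16, SE 0.25). FARP1, an exchange factor that binds class A plexins, was at 33.6 ± 3.93 and 18.6 ± 2.21 CPM (SD, n = 4 each; -0.85, SE 0.17). In the sets 7 of these 46 were higher and 2 lower in replicates 3 and 4 at an adjusted p under 0.05. They include SRGAP1, a partner of ROBO receptors (1.16, SE 0.17, adjusted p = 0.00563 by edgeR), and CRMP1, a mediator of SEMA3A signaling (4.49, SE 0.34, adjusted p = 0.000288 by edgeR), which is also known from neurons.

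Of the surface partners of these ligands, 5 of 24 were higher and 1 lower with overexpression, and 1 of 27 was higher and 2 lower with knockdown. PTPRD, a receptor tyrosine phosphatase, was at 680 ± 47.7 and 750 ± 23.7 CPM with overexpression and at 82.4 ± 7.09 and 63.6 ± 13.0 CPM with knockdown (SD, n = 4 each; log2 fold changes 0.14 and -0.37). GPC6, a glypican, was at 7.64 ± 0.781 and 3.76 ± 1.57 CPM with knockdown (SD, n = 4 each; -1.02, SE 0.33). Between the sets 5 of 27 were higher in replicates 3 and 4 and 1 was lower, KDR, a VEGF receptor (-1.06). DSCAML1 and L1CAM, among the 5, did not pass the filter on low counts within replicates 1 and 2, so their place there follows from the filter. The teneurin partner ADGRL1, a latrophilin, and the glypicans GPC3 and GPC4, heparan sulfate carriers of the kind that SLITs bind, were among the 5 (0.96, 0.74 and 2.51). Of the ephrins and Eph receptors, another guidance family, 1 of 15 was higher and 1 lower with overexpression and 1 of 17 was higher and 1 lower with knockdown, near the shares of all genes. Between the sets 3 of 17 were higher and 1 was lower. They were EPHA4, EPHA7 and EFNA5 (1.21, 0.87 and 1.86), and EPHB3 (-1.32).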

How the data were processed

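Libraries of 16 hiPSC-CM samples were prepared from 1000 ng of total RNA each, in a strand-preserving protocol. The authors aligned the reads to the human genome with STAR 2.7.3a and deposited unnormalized read counts by gene symbol, which the table's name marks as unstranded. Differences between groups were fitted here on those counts with edgeR 4.0.16 (R 4.3.3; TMM, robust quasi-likelihood F-test, filterByExpr, 2-sided), separately for each experiment and over all genes. The fits were tested on simulated data first. Calls used an unadjusted p of 0.05, the cutoff of the paper, or a Benjamini-Hochberg adjusted p of 0.05. The contrast between replicate sets had the treatment as a covariate, while the main knockdown fit had no term for the set. Positions and lengths came from GENCODE release 29, which matched 40216 symbols (67.7%) and all 54 members; exons of 19 members overlap another gene, which makes their unstranded counts uncertain. CPM intervals are SDs over libraries. Values per library are given for members past the unadjusted cutoff in either experiment that average 1 CPM or more and for those called between sets. The members and lists were chosen with earlier results of these data known. Alternatives were DESeq2 1.42.0, limma-voom (limma 3.58.1), DESeq2 size factors, other filters, 1 fit of 16 libraries, the replicate number as a block, set terms, fits within sets, offsets on gene properties (splines, 5 df) and fits that omit a library.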

Additional observations from a re-analysis of the deposited data

Results flagged for a closer look

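In 4 of 92 groups of 4 libraries, 1 library stood far from the other 3. Chance gives about 1 in 20 where groups are independent, but these groups share their libraries. SLIT2 was at 183 CPM in control plasmid replicate 2, with the others between 252 and 257, and NRP1 was at 475 CPM in the same library, with the others between 546 and 557. Over all genes with enough counts, that library also stood furthest from its group. Its chi-square per degree of freedom, which measures how far libraries differ beyond sampling noise, was 15.2, 12.1 and 11.4 against the other controls. Those were at 3.12 to 9.13 among themselves. SEMA3C was at 145 CPM in control plasmid replicate 3, with the others between 124 and 125, and SEMA3G was at 2.02 CPM in LINC00881 plasmid replicate 4, with the others between 2.37 and 2.38.

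For 8 of the 42 guidance genes tested with knockdown (19%) the GapmeR libraries lay wholly on 1 side of their controls in replicates 1 and 2 and wholly on the other side in replicates 3 and 4, with 2 libraries a side. The same was found in 15.5% of all 18127 genes tested. SLIT1 and SEMA3F, too low to be tested over the whole knockdown experiment, also met it, with at most 39 and 19 counts in a knockdown library. Within a set, SEMA3F was fitted in replicates 1 and 2 (-0.91) and SLIT1 in replicates 3 and 4 (-5.26). The difference between the sets was not tested. The log2 fold changes in the former and the latter were -0.93 and 0.28 for NEO1, -0.80 and 0.27 for SEMA3A and -1.62 and 0.61 for SEMA4D. They were 0.65 and -0.38 for PLXNA3, 0.53 and -0.24 for PLXNB2, and 0.37 and -0.08 for UNC5B. They were 1.91 and -4.21 for SEMA3G and 2.08 and -2.39 for SEMA4A, both of which had under 5 CPM in replicates 1 and 2.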

How the results depend on the processing

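The count of guidance genes higher with overexpression was 10, with 2 in 1 fit of all 16 libraries and 6 to 13 with each library left out in turn. The count lower with overexpression was 0, with 1 by limma-voom and 0 to 3 with each library left out, the 3 (PLXNC1, SEMA6A and SLIT2) without control plasmid replicate 2. The count higher with knockdown was 0, with 2 by limma-voom, 1 in 1 fit of all libraries, 1 in replicates 1 and 2 alone, 4 in replicates 3 and 4 alone and 0 to 1 with each library left out. The count lower with knockdown was 8, with 2 under the offset on gene span, 10 with a term for the set and 6 to 8 with each library left out. Between the sets, the count higher in replicates 3 and 4 was 7, with 12 in the scrambled oligonucleotide libraries alone and 5 to 7 with each library left out. The count lower was 1, with 2 by DESeq2, 2 by limma-voom, 2 among all genes with at least 1 count, 4 in the scrambled oligonucleotide libraries alone, 0 in the GapmeR libraries alone and 0 to 2 with each library left out. For most of these alternatives no share of all genes is given, so their counts describe the members alone. Among single genes, 2 values reversed with knockdown, SEMA3G at 1.91 in replicates 1 and 2 alone and TENM3 at 0.10 under the span offset, while 29 moved by more than 1 SD of the libraries and 522 did not; the cause was not tested. With the replicate block 11 members were past the cutoff upward in the plasmid experiment and 7 downward in the GapmeR experiment. Samples that share a replicate number correlated in their deviations by -0.0918 to 0.133 with overexpression and 0.0795 to 0.168 with knockdown, so the numbers were not taken to pair the samples, and not every sample correlated best with its own number. Members under about 1 CPM were limited by depth, and the knockdown fit by a biological coefficient of variation of 0.445, against 0.0792 with overexpression. The knockdown fit had no term for the set, so its spread and SEs hold the difference between sets. With that term the coefficient was 0.366.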

Other observations

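In the overexpression experiment the LINC00881 plasmid libraries were closer to each other than the control plasmid libraries for several receptors. This was not particular to them. Over all genes with enough counts, the chi-square per degree of freedom was 1.94 to 4.37 between LINC00881 plasmid libraries. It was 3.12 to 15.2 between control plasmid libraries. PLXNA1 was at 302 ± 4.96 CPM with LINC00881 plasmid and 276 ± 36.7 with the control plasmid, NEO1 at 136 ± 0.665 and 122 ± 8.96, PLXNA4 at 147 ± 1.26 and 128 ± 9.62, and TENM3 at 134 ± 3.29 and 123 ± 12.6 (SD, n = 4 each). These genes were chosen after their values were seen, and the difference in spread was not tested.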
